A study of Mus musculus with 6 samples.

Results

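The genes of MHC class II presentation described here are 10 members of the 51810 genes in the deposited table of the series: the class II chains H2-Aa, H2-Ab1 and H2-Eb1, the DM chains H2-DMa, H2-DMb1 and H2-DMb2, the DO chains H2-Oa and H2-Ob, the invariant chain gene Cd74, and Ciita. They were chosen by symbol and role, with no measured value in the rule, and each symbol matched 1 row. Earlier results of these data were known when the members were chosen. They were measured in 6 poly(A) RNA libraries of sorted mouse medullary thymic epithelial cells labelled mTEChi. The cKO group has 3 libraries from mice in which Trp53, the gene of the transcription factor p53, was conditionally deleted, and the WT group has 3 from mice without Cre and with intact Trp53. All mice were 4 to 5 weeks old, EpCAM-positive cells were enriched on magnetic beads, and 75000 cells per sample were sorted. The labels used here give neither the Cre driver nor the mouse strain. Nothing in them ties a library to its own mouse, so the p-values rest on a spread between samples that may be technical. They also do not name the proteins that set the high gate. By convention mTEChi cells are gated on surface class II protein or CD80, so a gate on class II protein would have selected for the products of these genes in both groups. The comparison of cKO with WT asks whether loss of p53 changed the transcript levels of the class II pathway in these cells.

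Class II molecules are pairs of an alpha and a beta chain that carry peptides to the cell surface, where CD4+ T cells read them. In the medulla of the thymus they display the cell's own antigens to developing T cells, which removes self-reactive cells or turns them into regulatory T cells. New pairs assemble on the invariant chain, which blocks the groove until proteases trim it to the short peptide CLIP. DM then takes CLIP out and favours peptides that bind well, and DO inhibits DM. CIITA does not bind DNA itself. It is recruited to factors on shared promoter boxes, with RFX on the X box, CREB on its second part and NF-Y on the Y box, and it switches the class II genes on together.

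The promoter sequences are shown because class II genes are known to share these boxes, though not every member was found to hold them. RefSeq promoter windows (GRCm38.p6, 250 bases before to 50 after the start site) were found for 7 of the 10 members: H2-Aa, H2-Eb1, H2-DMa (2 windows), H2-DMb1, H2-DMb2, H2-Oa and H2-Ob. Cd74, Ciita and H2-Ab1 were not matched. The stretches are read 5′ to 3′ on the coding strand and end 5 bases after the Y box core. Capitals mark exact matches to the Y box core GATTGG, the X box core GCAAC and the second X box GATGATGC. Variants of these letters stay in lower case, so a stretch without a marked second X box may still hold one.
H2-Aa: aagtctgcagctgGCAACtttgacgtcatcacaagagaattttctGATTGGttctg
H2-Eb1: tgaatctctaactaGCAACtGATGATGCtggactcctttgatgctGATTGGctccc
H2-Oa: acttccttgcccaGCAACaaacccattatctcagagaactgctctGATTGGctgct
H2-Ob: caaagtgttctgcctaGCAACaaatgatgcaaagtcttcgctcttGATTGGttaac
H2-DMb1: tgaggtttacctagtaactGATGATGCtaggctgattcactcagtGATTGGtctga
H2-DMb2: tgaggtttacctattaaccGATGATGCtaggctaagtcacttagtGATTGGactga

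The H2-Aa stretch lies on the minus strand at chr17:34287862-34287917. The others lie on the plus strand, H2-Eb1 at chr17:34305762-34305817, H2-Oa at chr17:34092290-34092345, H2-Ob at chr17:34238802-34238857, H2-DMb1 at chr17:34153084-34153139 and H2-DMb2 at chr17:34145113-34145168. The Y box core began 44 bases before the start site in H2-Oa, 49 in H2-Aa, 58 in H2-Ob, 60 in H2-Eb1, 62 in H2-DMb1 and 91 in H2-DMb2. These start sites are those of RefSeq, and the Ensembl genes used for counting can begin elsewhere. The H2-DMb1 and H2-DMb2 stretches lie inside their Ensembl genes, and the H2-Oa stretch overlaps the start of its gene. The X box core began 32 bases before the Y box core in H2-Aa and H2-Oa, 31 in H2-Eb1 and 29 in H2-Ob. H2-DMb1 and H2-DMb2 had no GCAAC in the window, and their second X box began 26 bases before the Y box core, against 25 in H2-Eb1. Both of these genes thus had the same spacing, and their stretches were identical at 50 of 56 bases, while the other 14 pairs of stretches were identical at 15 to 28 bases.

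The letters and spacings were chosen with these windows in view, and a match is a description of letters, not a bound site. Over all 32851 windows and on both strands, GATTGG or its reverse complement was present in 16.1%, GCAAC in 35.2% and GATGATGC in 0.703%. On the coding strand, either X letters followed by the Y letters 20 to 40 bases later were present in 67 windows (0.204%), of which 6 belonged to 6 of the members. The first H2-DMa window held neither the Y nor the second X letters, and the other held GATTGG 199 bases before its start site. The first H2-DMa window also held GCAAC on the opposite strand, 7 bases before its start site.

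**Figure D1:**
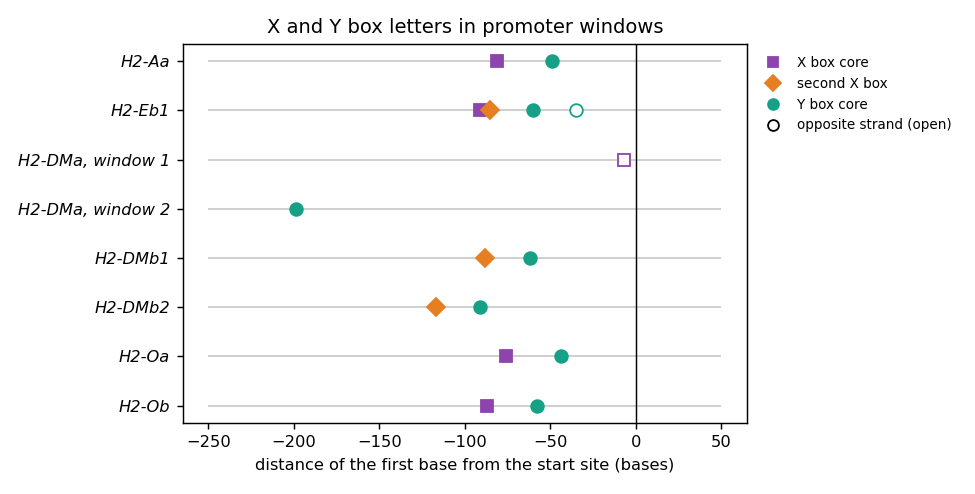
Positions of the X box core, the second X box and the Y box core in the promoter windows of 7 members, as the distance of the first base from the start site in bases; open symbols are on the opposite strand. In 6 genes the coding-strand Y box core lies 44 to 91 bases before the start site, with X letters further upstream.

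The label of the libraries was checked first. Trp53 had 386, 361 and 369 counts in the cKO libraries, against 5351, 4837 and 5314 counts in the WT libraries, and was 14.0-fold lower in cKO (edgeR adjusted p = 5.76e-10, with −3.81 on the log2 scale and an SE of 0.0999), so every library matched its label. Library totals were 45457892 to 50128045 counts. Summed over 12 markers of medullary epithelium, which are described singly with the other cell type markers, the level was 4931 to 5222 CPM (counts scaled by library size with TMM) in cKO and 5124 to 5358 CPM in WT.

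None of the 10 members passed the test between the groups. All 10 passed the filter on low counts, and edgeR's quasi-likelihood test called 0 of them at an adjusted p of 0.05, against a background of 17 of 28543 genes (0.0596%), of which 7 were higher (0.0245%) and 10 lower (0.035%) in cKO. DESeq2 and limma-voom also called 0 members, and 0 had an unadjusted edgeR p under 0.05, where 8.51% of all genes did. The adjusted p-values lay between 0.684 and 0.99. The median log2 fold change of the members was −0.02, with 4 above and 6 below 0, beside −0.0053 over all genes tested. Their median absolute log2 fold change was 0.0352, beside 0.15 over all genes tested and 0.0984 over the 1346 genes at least as abundant in CPM as the lowest member. The 95% intervals of the differences reached at lowest 0.85-fold (H2-Ab1, H2-DMb2 and H2-Oa) and at highest 1.27-fold (H2-DMb1). Smaller differences are not excluded by these intervals. In bulk libraries fewer cells of a type and less RNA per cell cannot be told apart.

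**Figure D2:**
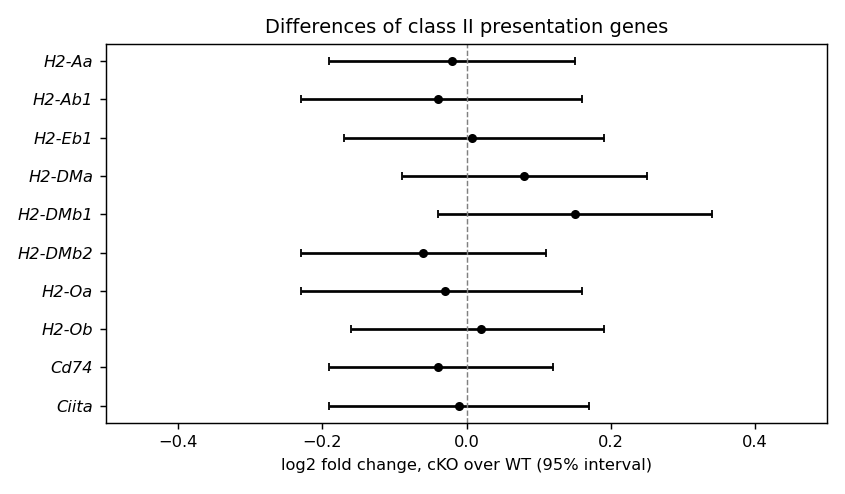
Log2 fold change of each member, cKO over WT, as points with 95% intervals from the edgeR fit of 3 cKO and 3 WT libraries. All 10 intervals include 0 and lie between −0.23 and 0.34, and H2-DMb1 stands furthest from 0 at 0.15.

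Per unit of length, class II transcripts were among the most abundant of these cells. TPM are read counts per kilobase of annotated exon, scaled by the authors to the same sum in every library. The 10 members together took 3.99, 4.09 and 4.14% of all TPM in the cKO libraries, against 3.88, 4.16 and 4.2% in the WT libraries, and the groups overlapped. By mean TPM over 6 libraries Cd74 ranked 2nd of 51810 genes, H2-Ab1 10th, H2-Aa 11th and H2-Eb1 12th, while H2-Ob ranked 2606th. In order of mean TPM the members were Cd74, H2-Ab1, H2-Aa, H2-Eb1, H2-DMb2, H2-Oa, H2-DMb1, H2-DMa, Ciita and H2-Ob. The ranges over the 6 libraries overlapped between H2-Ab1 and H2-Aa and between H2-Aa and H2-Eb1, and lay apart for every other pair of neighbours. The largest steps were from H2-Eb1 to H2-DMb2, with a mean ratio of 5.41, and from Cd74 to H2-Ab1, with a mean ratio of 4.17.

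**Figure D3:**
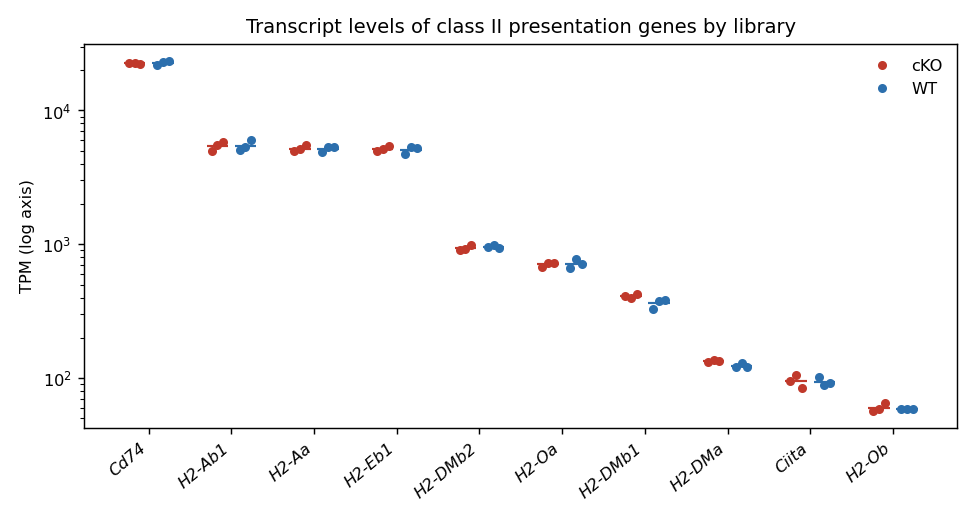
TPM of each member in each library on a log axis, ordered by mean TPM, with cKO points left of WT points and the group mean as a line. The order runs from Cd74, at 21855 to 23241 TPM, down to H2-Ob, at 56.9 to 64.6 TPM, and the groups lie apart for H2-DMa and H2-DMb1.

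Among the antigen-presenting chains, H2-Aa and H2-Ab1 encode the alpha and beta chain of I-A. H2-Aa (ENSMUSG00000036594, chromosome 17, 34282744 to 34287823 in mm10) had 4972, 5140 and 5472 TPM in cKO libraries 1 to 3, against 4928, 5336 and 5291 TPM in WT libraries 1 to 3. The groups overlapped, and library 1 was the lowest of each (log2 fold change −0.02, SE 0.079, edgeR adjusted p = 0.968). H2-Ab1 (ENSMUSG00000073421, chromosome 17, 34257689 to 34269419) had 5017, 5472 and 5785 TPM in cKO, against 5064, 5365 and 5984 TPM in WT. Here too library 1 was the lowest and library 3 the highest of each group, and the difference was −0.04 on the log2 scale (SE 0.0898, edgeR adjusted p = 0.954).

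H2-Eb1, the beta chain of I-E (ENSMUSG00000060586, chromosome 17, 34305867 to 34316674), had 4992, 5187 and 5391 TPM in cKO, against 4707, 5311 and 5199 TPM in WT. WT library 1 was the lowest of the 6 and the groups overlapped (log2 fold change 0.0081, SE 0.082, edgeR adjusted p = 0.99). Between the I-A chains the TPM ratio of H2-Aa to H2-Ab1 was 0.959 ± 0.028 in cKO and 0.951 ± 0.0585 in WT (SD, n = 3 each). Both chains of I-A thus stood at similar levels per annotated length, which is 3.798 kb for H2-Aa and 2.568 kb for H2-Ab1. Not divided by length, H2-Aa had 8615 CPM and H2-Ab1 6083 CPM in cKO, against 8744 and 6238 CPM in WT. The ratio of H2-Eb1 to H2-Ab1 was 0.958 ± 0.0327 in cKO and 0.929 ± 0.0606 in WT. The alpha partner of H2-Eb1, annotated as the pseudogene H2-Ea-ps, had 63, 83 and 107 counts in the cKO libraries, against 67, 57 and 37 counts in the WT libraries. H2-Eb1 had at least 181573 counts in every library. In mice of the b haplotype, the haplotype of the reference genome, the E alpha gene is known to be inactive.

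The invariant chain gene Cd74 (ENSMUSG00000024610, chromosome 18, 60803848 to 60812652) had 22621, 22767 and 22346 TPM in cKO, against 21855, 23148 and 23241 TPM in WT. The cKO libraries lay within the WT range, and the log2 fold change was −0.04 (SE 0.0708, edgeR adjusted p = 0.938). Cd74 stood at 1.43 ± 0.0843 times the summed TPM of the 3 class II chains in cKO and 1.45 ± 0.0381 times in WT (SD, n = 3 each).

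Ciita, the transactivator (ENSMUSG00000022504, chromosome 16, 10480059 to 10528418), had 95.7, 105 and 84.1 TPM in cKO, against 101, 88.3 and 92.6 TPM in WT. The highest and the lowest value were both in cKO, and the log2 fold change was −0.01 (SE 0.0825, edgeR adjusted p = 0.988). The order of the libraries by Ciita was not that by the chains. The summed TPM of H2-Aa, H2-Ab1 and H2-Eb1 was 14981, 15799 and 16648 in the cKO libraries, against 14699, 16012 and 16474 in the WT libraries. The libraries with the lowest chain sums, cKO 1, cKO 2 and WT 1, had the highest Ciita, and cKO library 3, with the highest chain sum, had the lowest Ciita. Counts were summed over all exons, so transcripts from the alternative promoters of Ciita cannot be told apart, and 3.45% of its exon bases overlap Dexi on the opposite strand, which the authors' counting did not separate.

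The DM chains showed the widest differences among the members, and none passed the test. H2-DMb1, a beta chain of DM (ENSMUSG00000079547, chromosome 17, 34153072 to 34160230), had 408, 399 and 422 TPM in cKO, against 330, 374 and 382 TPM in WT. All 3 cKO libraries lay above all 3 WT libraries, with the lowest value in WT library 1, and the order was the same in TMM-scaled CPM (301 ± 14.1 in cKO and 271 ± 27.5 in WT, SD, n = 3 each). The log2 fold change was 0.15 (SE 0.0872, 95% interval −0.04 to 0.34, edgeR adjusted p = 0.684), and 0.0701 without WT library 1. In TMM-scaled CPM 1 of the 10 members had groups that did not overlap, where 14.4% of all genes did not overlap and 7.14% had cKO above WT. In TPM 2 members, H2-DMb1 and H2-DMa, had cKO above WT, as did 8.13% of all genes.

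H2-DMb2, the other beta chain (ENSMUSG00000037548, chromosome 17, 34143307 to 34151555), had 904, 916 and 995 TPM in cKO, against 947, 993 and 944 TPM in WT. Its groups overlapped and its difference had the opposite sign (log2 fold change −0.06, SE 0.0788, edgeR adjusted p = 0.891). Leaving out 1 library put its log2 fold change between −0.118 (without cKO library 3) and −0.0155 (without WT library 2). The TPM ratio of H2-DMb2 to H2-DMb1 was 2.22, 2.29 and 2.36 in the cKO libraries, against 2.87, 2.65 and 2.47 in the WT libraries. This ratio does not depend on library scaling. It was the 1 ratio of the 8 described whose groups lay apart, with all cKO libraries below all WT libraries. Among single genes 14.2% had groups apart in TPM, and no such share was computed for ratios. With 3 against 3 libraries no exact permutation p can be under 0.1. The stretches of the 2 promoters printed above differ at few bases, and the transcripts are alike as well. Of the 25-base words in H2-DMb1 transcripts, 35.1% also occur in H2-DMb2 transcripts, and 33.4% of the words in H2-DMb2 occur in H2-DMb1 (GENCODE M21). Reads that align equally well to both genes were not counted, so the level of each rests on the stretches that differ and is uncertain.

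H2-DMa, the alpha chain of DM (ENSMUSG00000037649, chromosome 17, 34119541 to 34139101), had 131, 136 and 133 TPM in cKO, against 122, 129 and 120 TPM in WT. The groups lay apart in TPM but overlapped in TMM-scaled CPM, and the difference was smaller than for H2-DMb1 (log2 fold change 0.08, SE 0.0767, edgeR adjusted p = 0.833). Per length it stood at 0.0988 ± 0.0048 of the summed DM beta chains in cKO and 0.0935 ± 0.00262 in WT (SD, n = 3 each). Its annotated exons sum to 3.448 kb, about the length of H2-Aa, and exons that are rarely used lower a TPM value. Of its exon bases 10.4% overlap Brd2 on the opposite strand, a gene with 13263 to 14634 counts against 8322 to 10196 for H2-DMa, and reads of the 2 genes cannot be told apart there.

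Of the DO chains, H2-Oa, the alpha chain (ENSMUSG00000024334, chromosome 17, 34092340 to 34095234), had 675, 730 and 728 TPM in cKO, against 660, 780 and 707 TPM in WT. The WT libraries held both the lowest and the highest value (log2 fold change −0.03, SE 0.0894, edgeR adjusted p = 0.955). Its count is uncertain, since 22.8% of its exon bases overlap BC051537 on the opposite strand, a gene with 7104 to 9583 counts against 18412 to 23613 for H2-Oa. H2-Ob, the beta chain (ENSMUSG00000041538, chromosome 17, 34238903 to 34254414), had 56.9, 58.6 and 64.6 TPM in cKO, against 58.5, 58.4 and 58.4 TPM in WT. The cKO values lay on both sides of the WT values (log2 fold change 0.02, SE 0.0826, edgeR adjusted p = 0.978). H2-Oa stood 11.9 ± 0.592 times above H2-Ob in cKO and 12.2 ± 1.05 times in WT (SD, n = 3 each), so the transcripts of the DO chains were unequal per annotated length, which is 1.407 kb for H2-Oa and 5.38 kb for H2-Ob. The summed DM transcripts were 1.92 ± 0.0712 times the summed DO transcripts in cKO and 1.87 ± 0.0837 times in WT.

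**Figure D4:**
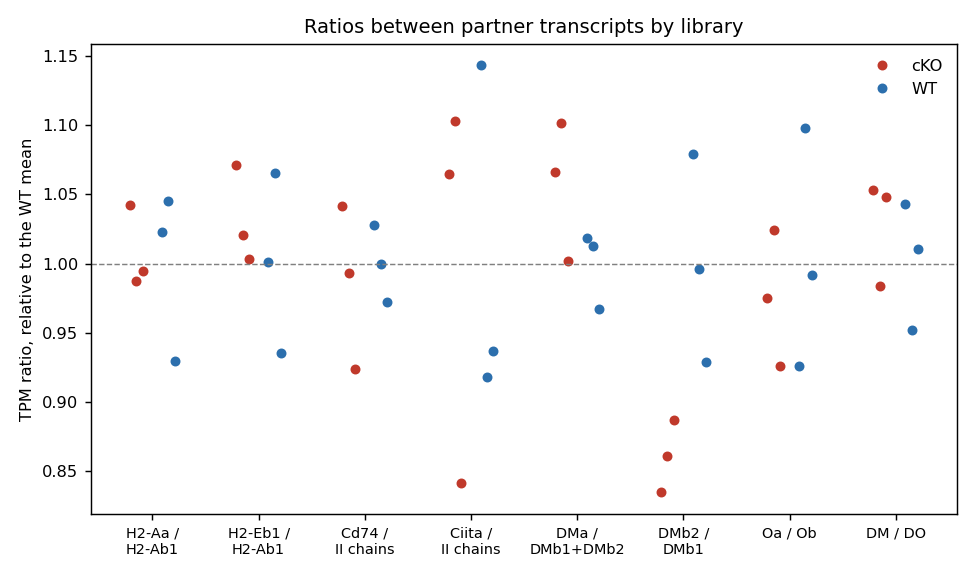
TPM ratios between partner transcripts in each library, divided by the mean of the WT libraries, with cKO points left of WT points and a dashed line at the WT mean. The groups overlap in 7 of the 8 ratios and lie apart for H2-DMb2 over H2-DMb1, at 2.22 to 2.36 in cKO and 2.47 to 2.87 in WT before the division.

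Within a group, the SD between libraries was at most 10.8% of the mean (Ciita in cKO), while counting error alone was at most 1.27% at the lowest count of any member. The lowest TPM was found in WT library 1 for 5 members and in cKO library 1 for 3. In 8 of 10 members the lowest library thus carried replicate number 1, and cKO library 3 was the highest for 5. The share of all genes with this pattern was not computed, so it is not read as a trait of the members. The members come from the same 6 libraries and are not separate observations of them. Among 12849 other genes with at least 10 CPM, those whose CPM followed the summed chains most closely over the 6 libraries were Cidec (Pearson r = 0.997), Tmed5 (0.996), Stk26 (0.995), Rab21 (0.989) and Cngb1 (0.984). With 6 libraries and so many genes such values are a description.

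Of 38 other genes of the class II pathway and region, 0 passed the edgeR test, and 0 passed with DESeq2 or limma-voom. An unadjusted edgeR p under 0.05 was found for 2 of the 38, where 8.51% of all genes had one. Among the 7 promoter factors 0 were called (median log2 fold change −0.01, 3 above 0). Rfx5, which encodes the DNA-binding subunit of RFX, had 98.7 ± 3.72 CPM in cKO and 98.7 ± 6.25 CPM in WT (SD, n = 3 each). Nfyb, a subunit of NF-Y, had the smallest p, with 16.4 ± 1.39 CPM in cKO and 20.1 ± 0.855 CPM in WT (log2 fold change −0.29, SE 0.115, edgeR adjusted p = 0.523). Of 12 regulators of Ciita and genes of interferon-gamma signalling 0 were called (median 0.06, 8 above 0). Irf2, an interferon regulatory factor, had the smallest p, with 82.1 ± 2.75 CPM in cKO and 70.4 ± 5.64 CPM in WT (0.22, SE 0.0866, edgeR adjusted p = 0.512). Rfx5 was chosen after its values were seen.

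Of 11 genes of class II processing and turnover 0 were called by edgeR, 0 had an unadjusted p under 0.05, and the median was 0.11, with 8 above 0. March1, which encodes a ubiquitin ligase that removes class II from the surface of other antigen-presenting cells, had the smallest p at a low level, with 3.46 ± 0.583 CPM in cKO and 4.91 ± 1.51 CPM in WT (−0.50, SE 0.246, edgeR adjusted p = 0.621). Ctss, the protease that trims the invariant chain, was chosen after its value was seen and had 411 ± 45.8 TPM in cKO and 336 ± 84.7 TPM in WT (0.26, SE 0.185, edgeR adjusted p = 0.76). Of 8 other genes of the class II region 0 were called by edgeR and 0 had an unadjusted p under 0.05 (median 0.04, 6 above 0). Its smallest p belonged to H2-Ea-ps (0.63, SE 0.32, edgeR adjusted p = 0.639). H2-Eb2, a further class II beta gene next to H2-Eb1, was also chosen after its values were seen. It had 740, 842 and 883 TPM in the cKO libraries, against 755, 815 and 801 TPM in the WT libraries, which is between H2-Oa and H2-DMb2 in level (log2 fold change 0.03, SE 0.0878, edgeR adjusted p = 0.96).

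B cells, dendritic cells and macrophages carry class II and could add to these counts, so their markers were read. Thymocyte markers were read beside them as those of another cell type, not as a source of class II. No list had a member at 0, edgeR called 0 of their genes, and their part in the results was not tested. The 8 B cell markers summed to 151 to 202 CPM in cKO and 147 to 182 CPM in WT. Of these Fcer2a was the highest, with 94.7 ± 20.3 CPM in cKO and 86.6 ± 12.6 CPM in WT, and Ebf1 had the smallest p (log2 fold change 0.35, SE 0.145, edgeR adjusted p = 0.537). Markers of dendritic cells and macrophages, 12 in all, summed to 697 to 984 CPM in cKO and 596 to 791 CPM in WT, and Lyz2, the lysozyme gene, made up most of it, with 668 ± 144 CPM in cKO and 530 ± 85.8 CPM in WT (0.33, SE 0.166, edgeR adjusted p = 0.645). Cd209a had the smallest p of that list (−0.70, SE 0.258, edgeR adjusted p = 0.479). The 10 thymocyte markers summed to 72.4 to 121 CPM in cKO and 68.6 to 128 CPM in WT, with Rag1 the highest at 26.4 ± 11.5 CPM in cKO and 26.3 ± 11.2 CPM in WT, and Cd3e the smallest in p (−0.49, SE 0.347, edgeR adjusted p = 0.755).

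Epithelial markers were read in the same way. Of 12 medullary markers edgeR called 0, and 4 had an unadjusted p under 0.05, where 8.51% of all genes did. These 4 did not share a direction. Cldn3, a tight junction gene, had the smallest p, with 79.7 ± 6.96 CPM in cKO and 62.1 ± 0.385 CPM in WT (log2 fold change 0.36, SE 0.0878, edgeR adjusted p = 0.246). Epcam had 563 ± 34.2 CPM in cKO and 497 ± 35.1 CPM in WT (0.18, edgeR adjusted p = 0.582), and Tnfrsf11a, which encodes the receptor RANK, had 329 ± 6.77 CPM in cKO and 296 ± 9.7 CPM in WT (0.15, edgeR adjusted p = 0.586). Aire, the autoimmune regulator, had 1047 ± 195 CPM in cKO and 1306 ± 108 CPM in WT, with all cKO libraries below all WT libraries (−0.32, SE 0.123, edgeR adjusted p = 0.516). Epcam, Tnfrsf11a and Aire are named because they make up that count, after their values were seen. The part of these markers in the results on the members was not tested. Of cortical epithelium, 6 markers were read. They were read because cortical cells also carry class II, but not all of them are confined to such cells. They summed to 971 to 1071 CPM in cKO and 1043 to 1112 CPM in WT. Ccl25 was the highest at 447 ± 6.06 CPM in cKO and 476 ± 39.1 CPM in WT. Foxn1 of that list had an edgeR adjusted p of 0.0506 (log2 fold change −0.54). DESeq2, limma-voom and edgeR with the replicate block (adjusted p = 0.00242) called it lower in cKO. It had 137 ± 9.64 CPM in cKO and 199 ± 15.8 CPM in WT (SD, n = 3 each). Foxn1 is not confined to cortical cells, and its level was not tested as a measure of them.

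**Figure D5:**
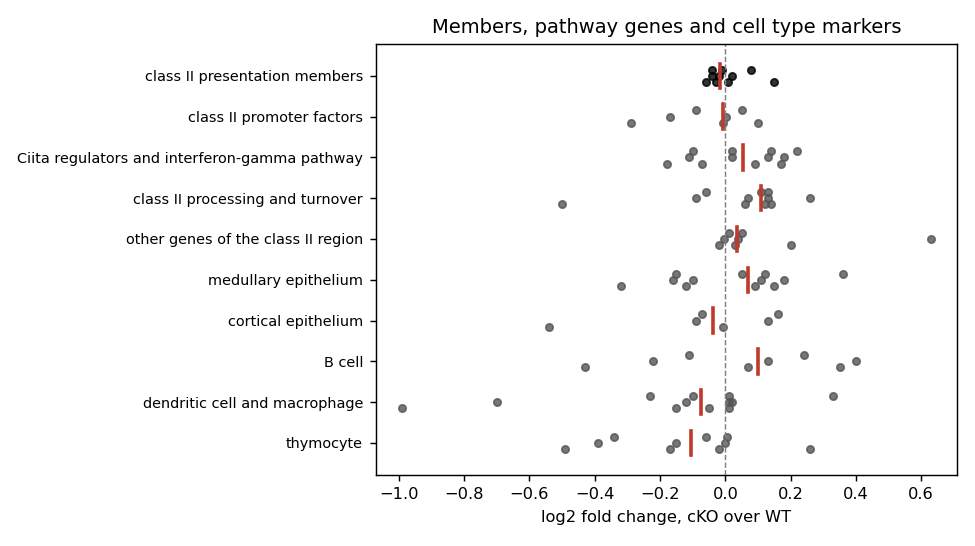
Log2 fold change, cKO over WT, of the 10 members, of 4 lists of pathway and region genes and of 5 lists of cell type markers, 1 point per gene with the list median as a red bar; vertical offsets only separate points. The members lie between −0.06 and 0.15, with a median of −0.02.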

How the data were processed

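The submitters' processing notes list TopHat2 2.1.1, SAMtools 1.9, Subread 2.0.1 and the build mm10. Per the file headers, the deposited counts are whole reads per gene from featureCounts 2.0.0 on Ensembl release 99, summed over exons, with strand ignored although the kit is stranded per the labels' protocols, with reads on overlapping genes given to every such gene, and without the options that count pairs or multiply aligned reads. The authors' deposited table holds the same counts for 51810 of 55385 genes and TPM, which matched counts per kilobase to within 0.000834% for values over 1; 1 of its columns was not used. All tests used the count files, with edgeR 4.0.16 and limma 3.58.1 in R 4.3.3: TMM scaling, filterByExpr, the robust quasi-likelihood F test and Benjamini-Hochberg adjustment over 28543 genes at 0.05. The fit was tested on simulated data. DESeq2 1.42.0, limma-voom, other scalings and filters, a replicate block and leaving out each library were alternatives. SE is the log2 fold change over the square root of F. No 2 libraries agreed within sampling noise (chi-square per gene 14.6 to 30.8). Totals were 45457892 to 50128045 counts, and a floor of 3 counts is 0.0598 to 0.066 CPM, covering counting error only.

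The members, lists and ratios were chosen with earlier results of these data known. Named genes are all members, Trp53, the gene with the smallest p or past the threshold in each list, the highest gene of each list of other cell types, and the 5 genes most like the class II chains. Rfx5, Ctss, H2-Eb2, Epcam, Tnfrsf11a and Aire fall outside this rule and were named after their values were seen. H2-Ea was looked up under its symbol H2-Ea-ps.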

Additional observations from a re-analysis of the deposited data

How the results depend on the processing

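In 16 alternatives the test called 0 of the 10 members every time, and the lowest adjusted p of any member was 0.457 (H2-DMb1 with the replicate block). H2-DMa and H2-DMb1 kept a positive and H2-DMb2 and Cd74 a negative sign in all 16. Taken over all 10 members, the 16 alternatives gave 160 log2 fold changes, and the sign turned in 15 of them. All 15 belonged to the other 6 members, whose main log2 fold changes were at most 0.0364 from 0, and the cause was not tested. H2-Eb1 was at −0.0038 with upper-quartile scaling and −0.010 with library totals, and H2-Ob at −0.0029 with library totals. Leaving out 1 library moved H2-Aa between −0.0781 and 0.0179, H2-Ab1 between −0.109 and 0.0364, H2-Eb1 between −0.0638 and 0.0609, H2-Oa between −0.111 and 0.0515, H2-Ob between −0.0559 and 0.0596 and Ciita between −0.0755 and 0.0551. Without changing sign, H2-DMa lay between 0.047 (without WT library 1) and 0.134 (without WT library 2), H2-DMb1 between 0.0701 (without WT library 1) and 0.197 (without WT library 3), H2-DMb2 between −0.118 (without cKO library 3) and −0.0155 (without WT library 2) and Cd74 between −0.0852 (without WT library 1) and −0.00479 (without WT library 2). Over all genes the 17 calls became 177 with DESeq2, 160 without the low-count filter and 6 without robust estimation, and 6 (without WT library 3) to 16 (without cKO library 1) with 1 library left out; without cKO library 2 or WT library 1 there were 7 each. The replicate block gave 203 calls and 0 members. Same-numbered libraries had correlations of deviations of 0.113, 0.0544 and 0.0755, each library's highest. The labels give the groups and no covariate, so the main fit left the replicate number out. Whether these libraries share more than a number was not tested, so the replicate block is given beside the main fit. Depth was not the limit for the members, whose lowest count was 6235.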
